A study of Mus musculus with 36 samples.

Results

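The hippocampus of vehicle-treated mice was compared with their cerebral cortex across all genes that the array annotation names by 1 gene symbol. The 3 Ctrl hippocampus arrays and the 3 Ctrl cortex arrays were taken from 18 gene-level Affymetrix Mouse Transcriptome Arrays 1.0, which measure total RNA as a log2 signal intensity per transcript cluster. A transcript cluster is the set of probes assigned to 1 gene or transcribed stretch. Of 65956 transcript clusters other than control probe sets, 30638 carried exactly 1 gene symbol and made up the members, for 30098 genes. The mice were male C57BL/6 animals of about 8 weeks. Ctrl mice received the Intralipid vehicle by intraperitoneal injection for 10 days, and DZP mice received diazepam, a benzodiazepine that potentiates GABA-A receptors, in the same vehicle (5 mg/ml by the labels). All mice, Ctrl included, were anesthetized with medetomidine, midazolam (itself a benzodiazepine) and butorphanol and perfused with artificial cerebrospinal fluid. The regions were punched out of coronal slices, so a punch can hold neighboring tissue. Each group had 3 arrays, and the sources do not say which arrays share a mouse, so p-values measure the spread between these arrays.

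The hippocampus is a folded sheet of cortex built from the dentate gyrus, whose granule cells receive the input of the entorhinal cortex, and from the fields CA3, CA2 and CA1, whose pyramidal cells pass it on to the subiculum. The neocortex has layers of projection neurons with distinct targets: upper-layer cells connect cortical areas, layer 4 cells receive thalamic input, and deep-layer cells project out of the cortex. Each field and layer is known by its own transcription factors, receptors and guidance molecules. In tissue RNA, fewer cells of a type and less RNA per cell cannot be told apart.

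Arrays of one region resembled each other more than arrays of the other region. Pearson's r across clusters was 0.996 to 0.997 among Ctrl hippocampus arrays, 0.994 to 0.996 among Ctrl cortex arrays and 0.984 to 0.988 between the regions. Negative-control probe sets, a gauge of background, averaged 6.71 to 6.80 on every array of the series, above the array medians of 5.86 to 6.03. A level under 6.80 therefore lay below the highest background mean.

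A cluster was called when its adjusted p in limma, with Benjamini-Hochberg adjustment over all clusters, was under 0.05. By this rule 5365 of all clusters (8.13%) were higher in Ctrl hippocampus than in Ctrl cortex, and 4544 (6.89%) were lower. Among the clusters with 1 symbol, 2760 (9.01%) were higher and 2503 (8.17%) were lower. At a difference of at least 2-fold, 346 of them were higher and 427 lower, against 884 (1.34%) and 1090 (1.65%) of all clusters. Of clusters with 1 symbol at or above the median level of all clusters, 14.1% were called higher and 13.7% lower. Below that median the shares were 2.7% and 1.41%. Counts of calls in the gene lists below are read against these shares and the 8.13% and 6.89% of all clusters. The median difference over all clusters was 0.04 on the log2 scale, hippocampus minus cortex, and all differences below run in this direction. The balance of calls moved with the scaling between arrays: 52.4% of the called clusters with 1 symbol were higher in the hippocampus as deposited, and 41.6% when array medians were set equal. The plot of difference against level shows the named genes with the largest differences above or near the background mean.

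**Figure D1:**
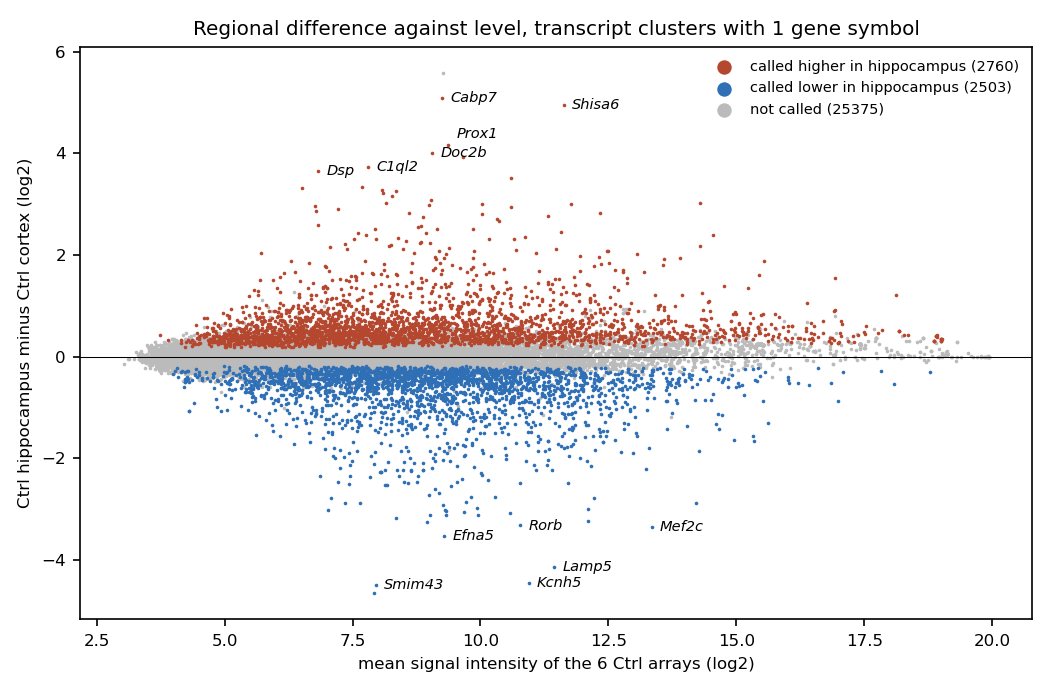
Each point is a transcript cluster with 1 gene symbol; the x axis is its mean signal intensity (log2) over the 6 Ctrl arrays and the y axis the difference of Ctrl hippocampus minus Ctrl cortex (log2). The 2760 clusters called higher are red, the 2503 called lower are blue and the others grey, and the 6 named genes with the largest differences in each direction are labelled.

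The named genes furthest above cortex in the Ctrl hippocampus included granule cell genes, calcium sensors and an AMPA receptor auxiliary gene. *Cabp7*, a calcium-binding protein, was at 12.08, 11.67 and 11.62 in Ctrl hippocampus arrays, against 6.82, 6.69 and 6.57 in Ctrl cortex arrays. This was a 34.1-fold difference, 5.09 ± 0.14 on the log2 scale (SE, adjusted p = 3.7e-12), with the cortex arrays at the background mean. *Shisa6*, an auxiliary protein that keeps AMPA receptors at the synapse, reached 14.435, 13.996 and 13.885 in Ctrl hippocampus arrays, against 9.05, 9.25 and 9.14 in Ctrl cortex arrays. Its difference of 4.96 ± 0.14 (adjusted p = 3.7e-12) started from a cortical level well above background. *Prox1*, the homeobox factor that sets granule cell identity, was at 11.92, 11.36 and 11.10 in Ctrl hippocampus arrays and at 7.23, 7.39 and 7.23 in Ctrl cortex arrays. *Doc2b*, a calcium sensor for vesicle release, was at 11.27, 10.94 and 10.99 in Ctrl hippocampus arrays and at 7.08, 7.20 and 6.91 in Ctrl cortex arrays. Both were more than 15-fold higher in the hippocampus (*Prox1* 18.0-fold, *Doc2b* 16.04-fold).

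The rest of the 15 largest increases ran between 3.03 and 3.73 on the log2 scale. They held the granule cell genes *C1ql2* (3.73), a synaptic organizer of mossy fibers, *Dsp* (3.66), a desmosomal linker, and *Lct* (3.32), the lactase gene. *Slit1* (3.52), a secreted repellent of axons, and *Ndst4* (3.33), a heparan sulfate modifying enzyme, were also among them. So were *St18* (3.27), a zinc finger factor, *Npy2r* (3.26), a presynaptic receptor for neuropeptide Y, *Slc44a5* (3.21), a choline transporter-like protein, and *Pkp2* (3.16), a partner of desmoplakin. *Ryr3* (3.08), a calcium release channel, and *Gabra5* (3.03), the GABA-A receptor subunit of extrasynaptic receptors in hippocampal pyramidal cells, completed the set. *Gabra5* was the brightest, with 15.89, 15.91 and 15.63 in Ctrl hippocampus arrays against 12.83, 12.64 and 12.87 in Ctrl cortex arrays. The Ctrl amygdala arrays were not low for all of these genes: *Doc2b* averaged 11.23 there, against 11.07 in Ctrl hippocampus and 7.06 in Ctrl cortex, whereas *Prox1* averaged 7.69 and *Dsp* 5.08 in the Ctrl amygdala. In Ctrl cortex the means of *C1ql2*, *Dsp*, *Lct*, *Ndst4*, *St18*, *Npy2r*, *Slc44a5* and *Pkp2* lay under the background mean of 6.80.

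The genes furthest below cortex in the Ctrl hippocampus included potassium channel genes, upper-layer genes and *Mef2c*. *Smim43*, a small membrane protein, was at 5.34, 5.82 and 5.97 in Ctrl hippocampus arrays, under background, against 9.96, 10.19 and 10.44 in Ctrl cortex arrays, a difference of -4.49 ± 0.21 (SE, adjusted p = 4.6e-10). *Kcnh5*, an ether-a-go-go potassium channel, was at 8.67, 8.65 and 8.84 in Ctrl hippocampus arrays and at 12.98, 13.33 and 13.18 in Ctrl cortex arrays, a 21.8-fold difference. *Lamp5*, a membrane protein of upper-layer neurons and of a class of interneurons, was at 9.36, 9.29 and 9.44 in Ctrl hippocampus arrays and at 13.43, 13.51 and 13.57 in Ctrl cortex arrays, 17.6-fold apart. The regions lay apart for all 3 genes, as their selection for the largest differences without overlap required.

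*Efna5* (-3.53), a repellent ligand of Eph receptors, *Mef2c* (-3.35), an activity-dependent transcription factor, and *Rorb* (-3.32), the nuclear receptor of layer 4 neurons, followed. *Mef2c* kept a high level in the hippocampus, with 11.33, 11.67 and 12.01 in Ctrl hippocampus arrays against 15.07, 15.13 and 14.87 in Ctrl cortex arrays. The others were *Cpne9* (-3.25), a calcium-dependent phospholipid-binding protein, *Dpp10* (-3.24) and *Kcnab3* (-3.11), auxiliary subunits of potassium channels, *Cckbr* (-3.18), the brain cholecystokinin receptor, and *Rgs6* (-3.12), a regulator of G protein signaling. *Mir128-1* (-3.07), a brain microRNA gene, *Plcxd2* (-3.05), *Rims3* (-3.03), a protein of the presynaptic release site, and *Exph5* (-3.02), a Rab effector, closed the set. The Ctrl hippocampus means of *Exph5* (5.51) and *Cckbr* (6.76) lay under background. *Dpp10* varied most of the 30 named genes among hippocampus arrays, at 9.72, 10.53 and 11.21 against 13.73, 13.83 and 13.62 in Ctrl cortex arrays. Its SD was 0.75 in Ctrl hippocampus and 0.11 in Ctrl cortex (n = 3 each).

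**Figure D2:**
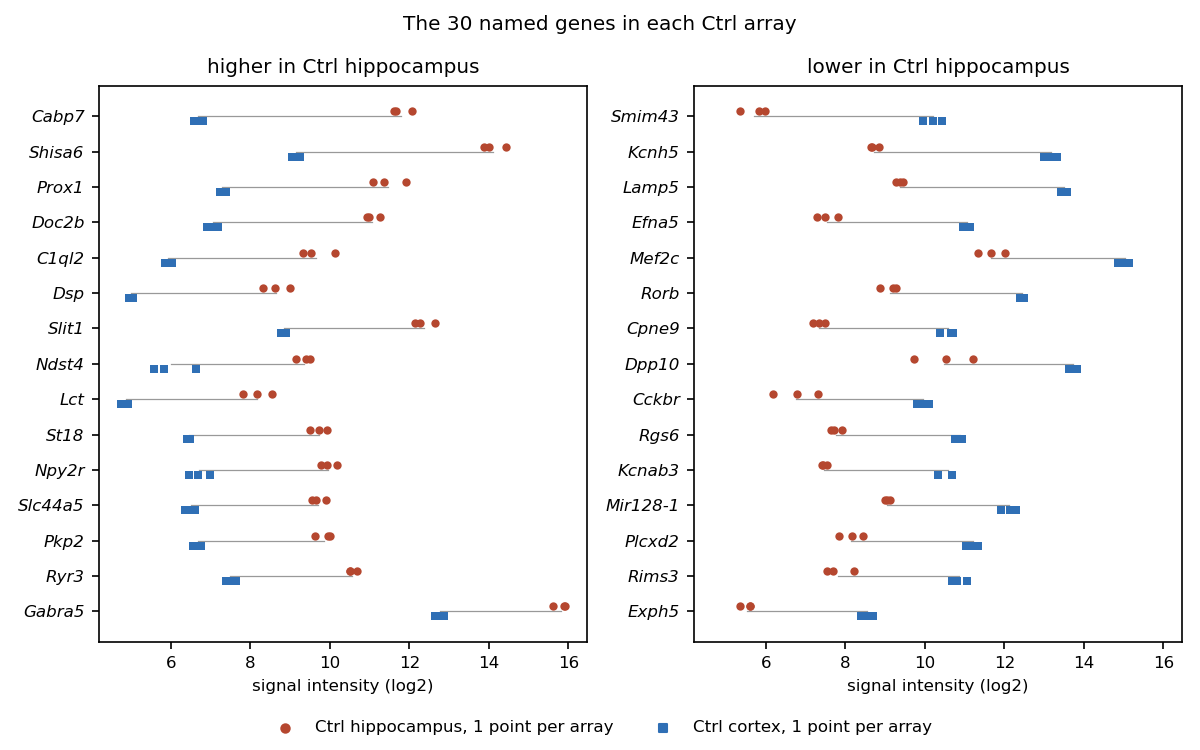
Signal intensity (log2, x axis) of the 15 genes with the largest increases (left) and decreases (right) in Ctrl hippocampus against Ctrl cortex; each red circle is 1 Ctrl hippocampus array, each blue square 1 Ctrl cortex array, and the grey line joins the group means. These genes were picked for having no overlap between the groups, so the points of the regions lie apart by selection. The hippocampus points of *Dpp10* and *Cckbr* are the most scattered.

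The hippocampus arrays differed among themselves along the same axis. Array 1 was the highest of the 3 in 14 of the 15 named genes that were higher in the hippocampus, and array 3 was the highest in 13 of the 15 that were lower. Over all genes called at 2-fold or more, array 1 was the highest in 215 of 342 higher genes and array 3 in 291 of 414 lower genes. The mean level of the granule cell markers was 8.89, 8.56 and 8.42 in hippocampus arrays 1, 2 and 3, while that of the CA1 markers was 9.05, 9.07 and 9.0. The granule cell markers were thus highest in array 1, and the CA1 markers were nearly even. The order of the granule cell markers was shared by the CA3 markers (7.78, 7.69 and 7.61) and the CA2 markers (7.87, 7.79 and 7.76). Genes of the whole hippocampal formation also had it (10.88, 10.65 and 10.61). Hilar mossy cell markers were highest in array 3 (7.86, 7.80 and 7.93). The part of the dissection in this spread was not tested.

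Markers of the hippocampal fields were higher in the Ctrl hippocampus in most of the lists. This is read against the 8.13% of all clusters called higher. The share was 14.1% of the clusters with 1 symbol at or above the median level. Of 10 granule cell markers measured, 7 were called higher and 1 lower, with a median difference of 1.35. *Prox1*, *C1ql2*, *Dsp* and *Lct* were more than 9-fold higher. The Ctrl cortex means of *C1ql2* (5.93), *Dsp* (5.00) and *Lct* (4.86) lay under background. *Npnt*, an extracellular matrix protein, was the one called lower, at 7.95, 7.95 and 7.76 in Ctrl hippocampus arrays against 8.24, 8.23 and 8.41 in Ctrl cortex arrays, and its call (adjusted p = 0.036) was lost when any 1 of the 6 arrays was left out. Of 7 CA1 markers, 6 were higher and none lower (median 0.89). *Fibcd1*, a chitin receptor, had 9.35, 9.21 and 8.99 in Ctrl hippocampus arrays and 6.77, 6.56 and 6.69 in Ctrl cortex arrays. *Man1a*, a mannosidase, rose by 1.84 and *Wfs1*, an endoplasmic reticulum protein of dorsal CA1 cells, by 0.89 to 11.02, 11.50 and 11.27 in Ctrl hippocampus arrays, against 10.62, 10.40 and 10.09 in Ctrl cortex arrays.

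Of 8 CA3 markers, 5 were higher and 1 lower (median 0.38). *Grik4*, a kainate receptor subunit of mossy fiber synapses, was at 10.76, 10.24 and 10.43 in Ctrl hippocampus arrays and at 8.68, 8.70 and 8.80 in Ctrl cortex arrays. *Coch*, a secreted matrix protein listed here for CA3, moved the other way, with 6.80, 7.16 and 6.78 in Ctrl hippocampus arrays against 9.07, 9.32 and 9.11 in Ctrl cortex arrays. Of 7 CA2 markers, 6 were higher and 1 lower (median 0.56), with 5 of the 7 under background in both regions. *Rgs14*, a suppressor of plasticity in CA2, rose 2.06-fold. *Amigo2*, an adhesion protein, rose 1.62-fold, under background in both regions (6.11 in Ctrl hippocampus, 5.42 in Ctrl cortex). *Pcp4*, a calmodulin-binding peptide, was lower at 15.34, 14.96 and 14.95 in Ctrl hippocampus arrays against 15.85, 15.96 and 16.07 in Ctrl cortex arrays, where deep-layer neurons are also known to express it. Of 6 hilar mossy cell markers, 3 were higher, led by *Calb2* (calretinin, 1.71).

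Genes of the whole hippocampal formation were higher in 9 of 10 cases, with a median of 1.94 and none lower. Besides *Cabp7* and *Gabra5* they included *Nr3c2*, the mineralocorticoid receptor, at 12.45, 12.02 and 11.74 in Ctrl hippocampus arrays against 9.18, 9.13 and 9.05 in Ctrl cortex arrays. *Spink8*, a protease inhibitor of pyramidal cells, rose by 2.59 and *Hpca*, the calcium sensor hippocalcin, by 1.53. The Ctrl cortex mean of *Spink8* (5.53) lay under background.

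Upper-layer and layer 4 markers of the neocortex were lower in the Ctrl hippocampus, read against the 6.89% of all clusters called lower. The share was 13.7% of the clusters with 1 symbol at or above the median level. All 7 upper-layer markers were called lower, with a median of -2.05. *Cux1* and *Cux2*, the homeobox factors of upper-layer neurons, fell by 2.18 and 1.95. *Rasgrf2*, a Ras exchange factor, was at 11.12, 10.99 and 11.08 in Ctrl hippocampus arrays against 13.14, 13.15 and 13.07 in Ctrl cortex arrays. Of 6 layer 4 markers, 4 were lower and none higher (median -1.30), among them *Kcnh5*, *Rorb* and *Rspo1*, a Wnt agonist, which was at 6.36, 6.52 and 6.47 in Ctrl hippocampus arrays, under background, against 8.50, 8.60 and 8.42 in Ctrl cortex arrays.

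Deep-layer markers were split. Of 11 layer 5 markers, 3 were higher and 3 lower. *Bcl11b*, the zinc finger factor of subcerebral projection neurons, was at 11.52, 11.30 and 11.17 in Ctrl hippocampus arrays against 9.01, 9.01 and 9.02 in Ctrl cortex arrays, a 5.00-fold increase. It is also known from granule cells and CA1. *Tshz2*, another zinc finger factor, was at 9.60, 10.28 and 11.14 in Ctrl hippocampus arrays and at 8.33, 8.16 and 8.50 in Ctrl cortex arrays, so it was highest in the hippocampus array with the lowest mean of the granule cell markers. *Fezf2*, a selector of subcerebral neurons, was 0.67 higher, and its call was lost without hippocampus array 3. *Deptor*, an inhibitor of mTOR signaling, fell by 1.39. Of 8 layer 6 markers, 3 were higher and 1 lower, with *Foxp2*, a forkhead factor of corticothalamic cells, at -1.08. The Ctrl hippocampus mean of *Foxp2* (5.97) lay under background. None of 4 layer 6b markers was called in limma, with 1 at an unadjusted p under 0.05.

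**Figure D3:**
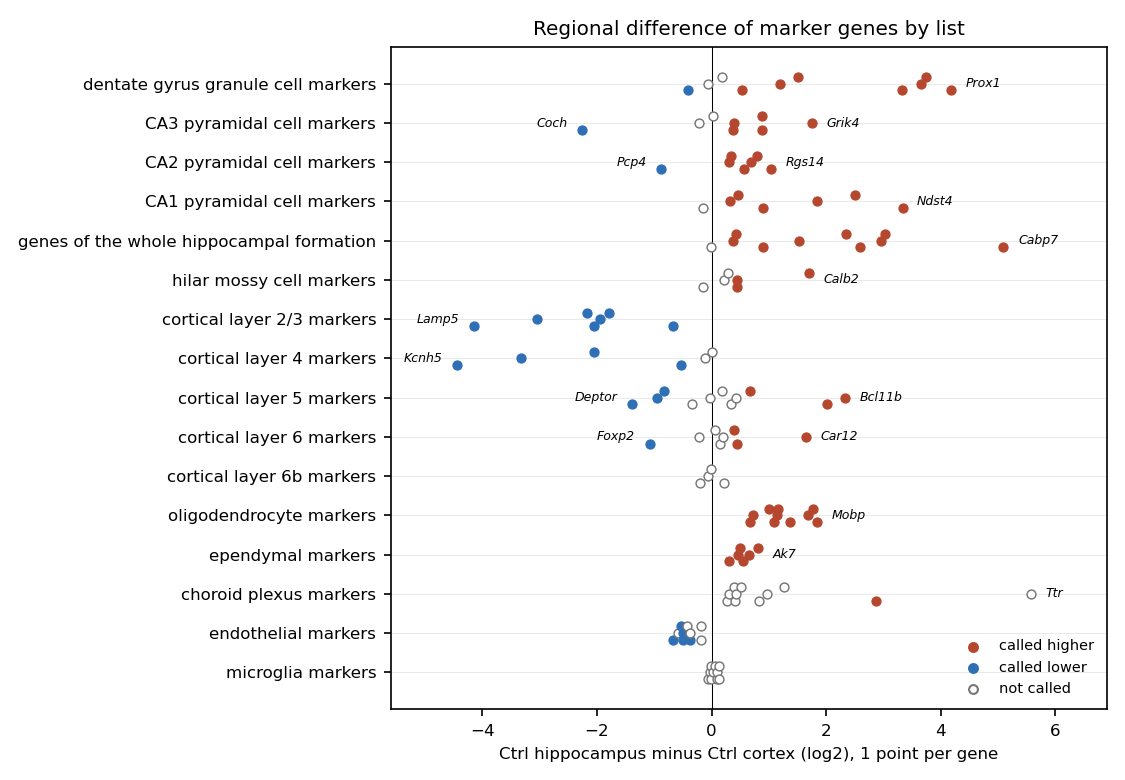
Difference of Ctrl hippocampus minus Ctrl cortex (log2, x axis) for the genes of 16 marker lists (y axis); each point is 1 gene, red where called higher, blue where called lower and open where not called. Upper-layer points lie left of 0, layer 4 points left of 0 or close to it, most field markers lie right of 0, and deep-layer points lie on both sides.

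Of 36 forebrain transcription factors, 12 were higher and 16 lower in the Ctrl hippocampus (median -0.17). *Neurod6* and *Neurod2*, basic helix-loop-helix factors of excitatory neurons, rose by 1.99 and 1.08. *Neurod6* was at 13.29, 12.83 and 12.71 in Ctrl hippocampus arrays and at 10.87, 10.89 and 11.09 in Ctrl cortex arrays, although it is listed as a gene of cortical projection neurons. *Tbr1*, a T-box factor of early-born cortical neurons, was at 7.95, 8.05 and 8.43 in Ctrl hippocampus arrays against 10.09, 10.16 and 9.94 in Ctrl cortex arrays. *Pou3f2*, a POU factor of upper layers, was at 7.22, 7.21 and 7.62 in Ctrl hippocampus arrays against 9.22, 10.18 and 10.11 in Ctrl cortex arrays. *Id2*, an inhibitor of helix-loop-helix factors, fell by 1.36.

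Guidance genes differed in both directions. Of 64 ephrin, semaphorin, netrin and Slit genes with their receptors, 24 were higher and 15 lower in the Ctrl hippocampus (median 0.10). The shares of all clusters were 8.13% and 6.89%. Among receptors for ephrin-A ligands, *Epha6* was at 13.55, 13.26 and 12.96 in Ctrl hippocampus arrays against 10.54, 10.20 and 10.04 in Ctrl cortex arrays, and *Epha7* was at 13.14, 12.93 and 12.34 against 10.32, 10.41 and 10.29. Their ligand *Efna5* was at 7.28, 7.49 and 7.82 in Ctrl hippocampus arrays, against 10.95, 11.08 and 11.14 in Ctrl cortex arrays, so receptor and ligand had opposite regional differences. *Sema5a*, a semaphorin with both attractive and repulsive action, rose by 2.74 and *Nrp2*, a co-receptor of class 3 semaphorins, by 2.03. A second cluster of *Nrp2* was at 5.54 in Ctrl hippocampus and 5.48 in Ctrl cortex and was not called. *Plxnd1*, the plexin that binds Sema3E, was at 7.52, 7.78 and 8.11 in Ctrl hippocampus arrays against 10.90, 10.70 and 10.55 in Ctrl cortex arrays. *Sema3a*, a secreted repellent, fell by 2.14, *Unc5d*, a netrin receptor of upper-layer neurons, by 1.99 and *Sema7a*, a membrane-anchored semaphorin, by 1.76. The Ctrl hippocampus mean of *Sema3a* (6.39) lay under background.

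Of 14 classical cadherins, calcium-dependent adhesion proteins that differ between connected regions, 4 were higher and 7 lower. *Cdh9*, known from mossy fiber synapses, was at 11.70, 11.40 and 11.18 in Ctrl hippocampus arrays and at 8.63, 8.41 and 8.84 in Ctrl cortex arrays, and *Cdh8* rose by 1.19. *Cdh6* fell by 2.54 and *Cdh12* by 2.49, with no overlap between the groups. Of 47 Wnt pathway genes, 2 were higher and 9 lower, beside 8.13% and 6.89% of all clusters. The list's median was 0.04, with 29 of the 47 genes under background in both regions. *Fzd3*, a frizzled receptor needed for axon tracts, fell by 1.15, *Rspo1* fell by 2.06, and *Rspo2*, another Wnt agonist, was at 7.21, 7.57 and 7.81 in Ctrl hippocampus arrays against 6.71, 6.69 and 6.67 in Ctrl cortex arrays.

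GABA-A receptor subunits, of which diazepam binds receptors with particular alpha subunits, differed in both directions between the regions of Ctrl mice. Of 16 subunit genes measured, 3 were higher and 5 lower in the Ctrl hippocampus, with 7 of the 16 under background in both regions. *Gabra5* was 8.18-fold, *Gabrb1* 2.21-fold and *Gabra2* 1.88-fold higher. *Gabra2* was at 14.02, 14.12 and 13.99 in Ctrl hippocampus arrays against 13.16, 13.14 and 13.09 in Ctrl cortex arrays. *Gabra3* was at 10.54, 10.85 and 11.43 in Ctrl hippocampus arrays and at 12.99, 12.88 and 12.94 in Ctrl cortex arrays, a difference of -2.0 ± 0.16 (SE, adjusted p = 2e-07). *Gabrd*, the subunit of tonic inhibition, was at 6.93, 6.85 and 6.98 in Ctrl hippocampus arrays, close to background, against 8.16, 8.38 and 8.39 in Ctrl cortex arrays. *Gabrb2* fell by 0.92.

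Ionotropic glutamate receptor genes and their auxiliary proteins were called higher in 11 and lower in 9 of 28 cases (median 0.22). *Gria1*, an AMPA receptor subunit, was at 15.88, 15.73 and 15.64 in Ctrl hippocampus arrays against 13.44, 13.30 and 13.31 in Ctrl cortex arrays, and *Cnih2*, an auxiliary protein that slows AMPA receptor closing, rose by 1.93. *Gria4*, another AMPA subunit, was at 10.73, 11.07 and 11.25 in Ctrl hippocampus arrays against 12.49, 12.40 and 12.41 in Ctrl cortex arrays. The transmembrane AMPA regulators *Cacng2* and *Cacng3* fell by 1.46 and 1.86, so with *Shisa6* and *Cnih2* the auxiliary proteins moved in both directions. Of 6 metabotropic glutamate receptors, *Grm5* rose by 0.95, and *Grm3* (-1.75) and *Grm4* (-0.63) fell.

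Serotonin receptors were split by subtype, with 6 of 14 higher and 3 lower. *Htr4*, a receptor that raises cyclic AMP, was at 7.44, 7.22 and 7.06 in Ctrl hippocampus arrays and at 5.64, 5.26 and 5.18 in Ctrl cortex arrays, where it lay under background. *Htr5b* rose by 1.5 and *Htr1a*, the inhibitory receptor of pyramidal cells, was at 7.69, 7.84 and 7.53 in Ctrl hippocampus arrays against 6.63, 6.85 and 6.88 in Ctrl cortex arrays. *Htr2a*, the cortical excitatory receptor, was at 8.59, 8.73 and 9.02 in Ctrl hippocampus arrays against 10.80, 10.90 and 11.16 in Ctrl cortex arrays. *Htr2c* was at 7.12, 8.04 and 7.83 in Ctrl hippocampus arrays against 6.52, 6.22 and 6.06 in Ctrl cortex arrays. The choroid plexus, which is rich in *Htr2c*, was also unevenly present in these hippocampus arrays (*Ttr* at 6.78, 16.42 and 12.97), and its part in the *Htr2c* difference was not tested. Of 14 acetylcholine receptors, 4 were higher and 5 lower, with 7 of the 14 under background in both regions. *Chrm5*, a muscarinic receptor, rose by 1.51, under background in both regions (6.45 in Ctrl hippocampus, 4.94 in Ctrl cortex). *Chrna7*, a nicotinic subunit, rose by 0.94, whereas *Chrm2*, a presynaptic muscarinic receptor, fell by 1.31.

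Voltage-gated potassium channel genes were lower more often than higher: 19 of 37 were lower and 7 higher, with a median of -0.43. Of the ether-a-go-go family, *Kcnh5* had the largest fall of the list (-4.45), and *Kcnh7* was at 10.86, 10.77 and 10.85 in Ctrl hippocampus arrays against 13.49, 13.69 and 13.62 in Ctrl cortex arrays. *Kcnv1*, a modifier subunit, fell by 2.85 and *Kcna2*, an axonal channel, by 1.56. Among the auxiliary beta subunits, *Kcnab1* rose by 1.06 and *Kcnab3* fell by 3.11.

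Neuropeptides and secreted signals were lower in 10 and higher in 6 of 27 cases. *Nts*, neurotensin, was at 8.71, 8.48 and 8.87 in Ctrl hippocampus arrays against 6.77, 6.32 and 6.01 in Ctrl cortex arrays. *Npy*, neuropeptide Y, was at 11.70, 11.36 and 11.61 in Ctrl hippocampus arrays against 13.05, 13.34 and 13.33 in Ctrl cortex arrays, while its receptor gene *Npy2r* was 9.59-fold higher. *Vip* fell by 2.23, as did *Cbln2*, a synaptic organizer. Interneuron markers were called higher in 6 and lower in 8 of 26 cases. *Pvalb*, parvalbumin of fast-spiking cells, was at 7.80, 7.74 and 7.96 in Ctrl hippocampus arrays against 9.11, 9.22 and 9.41 in Ctrl cortex arrays. *Sst*, somatostatin, was bright in both regions, at 15.46, 14.86 and 15.60 in Ctrl hippocampus arrays against 15.31, 15.56 and 15.30 in Ctrl cortex arrays (difference -0.08 ± 0.20, SE, adjusted p = 0.86). The GABA-synthesizing enzymes had small differences, with *Gad2* at -0.21 (adjusted p = 0.62) and *Gad1* at -0.42 (adjusted p = 0.044), a call that was lost without hippocampus array 1 or 2 or cortex array 2 or 3. *Nos1*, nitric oxide synthase, rose by 1.58.

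Activity-regulated genes, which neurons transcribe within minutes to hours of firing, were lower in 11 and higher in 4 of 21 cases, with a median of -0.72. *Egr3* was at 10.49, 9.80 and 10.52 in Ctrl hippocampus arrays against 11.90, 12.56 and 13.05 in Ctrl cortex arrays. *Egr1* was at 9.39, 9.31 and 9.75 in Ctrl hippocampus arrays against 11.11, 11.55 and 11.85 in Ctrl cortex arrays, and *Homer1*, a postsynaptic scaffold, was at 10.73, 10.81 and 10.85 against 12.32, 12.66 and 12.76. These 3 genes did not overlap between regions and fell by 2.23, 2.02 and 1.78.

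Other immediate early genes varied within both regions. *Arc*, a regulator of AMPA receptor endocytosis, was at 9.54, 10.27 and 11.21 in Ctrl hippocampus arrays 1, 2 and 3, against 10.91, 12.02 and 13.63 in Ctrl cortex arrays 1, 2 and 3. Array 1 was the lowest and array 3 the highest in both regions, the groups overlapped, and the call (-1.85 ± 0.54, SE, adjusted p = 0.028) was lost without hippocampus array 1 or 2 or cortex array 2 or 3. *Fos*, at 6.30, 6.72 and 7.09 in Ctrl hippocampus arrays against 7.14, 7.57 and 7.93 in Ctrl cortex arrays, had the same order, and its call (adjusted p = 0.016) was lost without hippocampus array 1 or cortex array 2 or 3. *Dusp1* (-0.97, adjusted p = 0.14) and *Nr4a1* (-1.14, adjusted p = 0.086) were not called over all arrays. Both had the same array order in both regions and were called without hippocampus array 3 (-1.40 and -1.57) or cortex array 1 (-1.41 and -1.57).

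In contrast, *Nr4a3*, *Jun* and *Nr4a2* were higher in the Ctrl hippocampus. *Nr4a3*, an orphan nuclear receptor, was at 10.38, 10.19 and 10.20 in Ctrl hippocampus arrays against 8.25, 8.42 and 8.25 in Ctrl cortex arrays. *Jun*, an AP-1 subunit, was at 9.23, 8.81 and 9.09 in Ctrl hippocampus arrays against 7.23, 7.36 and 7.03 in Ctrl cortex arrays. *Nr4a2* was at 11.62, 12.03 and 12.42 in Ctrl hippocampus arrays against 11.02, 10.62 and 10.19 in Ctrl cortex arrays, so the array numbered 3 was highest in the hippocampus and lowest in the cortex. The list held calls in both directions.

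**Figure D4:**
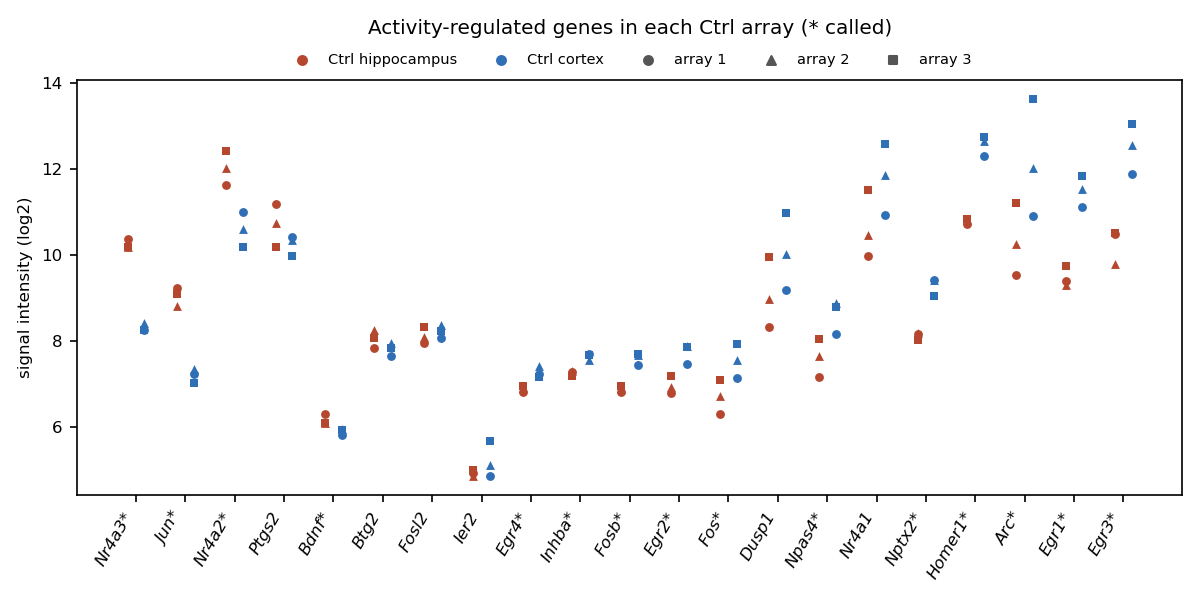
Signal intensity (log2, y axis) of the 21 activity-regulated genes (x axis, from the largest increase to the largest decrease) in each Ctrl array; red is hippocampus, blue is cortex, the marker shape gives the array number and an asterisk marks a called gene. *Nr4a3*, *Jun* and *Nr4a2* lie higher in the hippocampus, *Homer1*, *Egr1* and *Egr3* lie lower without overlap, and *Arc*, *Fos*, *Dusp1* and *Nr4a1* spread widely within both regions.

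Of 11 neurogenesis genes, 3 were higher and 2 lower, with 6 of the 11 under background in both regions. *Sox11*, a factor of immature neurons, rose by 0.58, whereas *Dcx*, doublecortin of migrating neurons, was at 8.09, 8.00 and 8.36 in Ctrl hippocampus arrays against 9.41, 9.38 and 9.26 in Ctrl cortex arrays. Of 10 corticosteroid receptors and response genes, 3 were higher and 1 lower. The receptors differed in direction, with *Nr3c2* up 7.73-fold and *Nr3c1*, the glucocorticoid receptor, at 9.72, 9.92 and 9.83 in Ctrl hippocampus arrays against 10.28, 10.58 and 10.51 in Ctrl cortex arrays. *Fkbp5*, a co-chaperone induced by glucocorticoids, rose by 0.48.

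MicroRNAs pair through bases 2 to 8, the seed, with target messenger RNAs. Clusters at microRNA genes were called higher in 35 and lower in 33 of 638 cases (5.49% and 5.17%), below the shares of all clusters. In DZP mice 49 were higher and 16 lower, with 7 of the 35 (20%) and 6 of the 33 (18.2%) called again in the same direction, against 55.7% and 66.6% of the calls over all clusters with 1 symbol. They stand for 30 genes that were higher and 32 that were lower, and 52 of these 62 matched a mature sequence in RefSeq (GRCm38.p6). The array values do not tell a mature microRNA from its precursor or from RNA of a gene around it. Mature sequences are shown, with the seed in capitals, for the product shared by both *Mir128* genes, for examples of genes that were higher or that lie within a called gene, and for 3 genes of a chromosome 12 stretch described below.
miR-128-3p: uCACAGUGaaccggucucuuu
miR-99a-5p: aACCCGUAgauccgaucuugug
miR-204-5p: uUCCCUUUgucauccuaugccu
miR-721: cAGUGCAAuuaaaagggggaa
miR-329-3p: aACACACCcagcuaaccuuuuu
miR-487b-5p: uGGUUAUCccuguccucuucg
miR-543-3p: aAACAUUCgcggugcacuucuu

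The first of these sequences is made from 2 genes, *Mir128-1* on chromosome 1 (chr1:128202404-128202424, plus strand) and *Mir128-2* on chromosome 9 (chr9:112118644-112118664, minus strand), and both were lower in the Ctrl hippocampus. The others come from chr16:77598940-77598961 (plus, miR-99a-5p), chr19:22750610-22750631 (plus, miR-204-5p) and chr5:136375777-136375797 (minus, miR-721), and from chromosome 12, plus strand, at chr12:109713541-109713562 (miR-329-3p), chr12:109727347-109727367 (miR-487b-5p) and chr12:109717304-109717325 (miR-543-3p). *Mir128-1* was at 9.04, 9.01 and 9.11 in Ctrl hippocampus arrays against 12.13, 12.30 and 11.92 in Ctrl cortex arrays, an 8.37-fold difference. *Mir128-2* was at 6.08, 6.39 and 6.17 in Ctrl hippocampus arrays, under background, against 7.63, 7.33 and 6.62 in Ctrl cortex arrays. *Mir128-1* lies within *R3hdm1* and *Mir128-2* within *Arpp21*, on the same strand, and the genes around them were lower too. *R3hdm1* was at 14.37, 14.54 and 14.63 in Ctrl hippocampus arrays against 16.13, 16.20 and 16.18 in Ctrl cortex arrays, and *Arpp21*, a cyclic AMP-regulated phosphoprotein gene, was at 10.86, 11.04 and 11.32 against 12.70, 12.56 and 12.26.

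Of the called microRNA genes, 21 lay within a protein-coding gene on its strand. In 16 of these the gene around it was called as well, in the same direction in 12. *Mir721* (-1.16) lies within *Cux1* (-2.18), *Mir767* (-0.38) within *Gabra3* (-2.0), and *Mir1912* (0.71) and *Mir764* (0.47) within *Htr2c* (1.39). The *Mir764* call was lost without any 1 of the 6 arrays, the *Mir1912* call without any but cortex array 3, and the *Mir767* call without hippocampus array 1 or 3 or cortex array 1 or 2. *Mir767* lay under background in both regions (4.77 in Ctrl hippocampus, 5.16 in Ctrl cortex). *Mir204*, which lies within *Trpm3*, a calcium-permeable channel gene, was at 6.59, 7.32 and 6.84 in Ctrl hippocampus arrays against 6.06, 5.96 and 5.87 in Ctrl cortex arrays. *Trpm3* was at 10.40, 11.14 and 10.25 in Ctrl hippocampus arrays against 9.68, 9.37 and 9.32 in Ctrl cortex arrays. Both were highest in hippocampus array 2, which also had the highest *Ttr*, and this link was not tested. *Mir99a* was at 7.71, 7.38 and 7.26 in Ctrl hippocampus arrays against 5.83, 6.06 and 6.13 in Ctrl cortex arrays. In DZP mice neither *Mir99a* (0.57, adjusted p = 0.063) nor *Mir204* (0.28, adjusted p = 0.43) was called in limma.

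A stretch of chromosome 12 between the imprinted genes *Meg3* and *Dio3* holds many microRNA genes. Of 42 measured there, 40 were below 0 and 11 were called lower in the Ctrl hippocampus, none higher, with a median of -0.35. *Mir487b* (-1.11), *Mir329* (-0.89), *Mir544* (-0.77), *Mir453* (-0.75), *Mir376b* (-0.74) and *Mir543* (-0.73) were among the called ones. The *Mir376b* call (adjusted p = 0.04 in limma) was lost without hippocampus array 1 or 2 or cortex array 2 or 3. *Mir329* was at 8.11, 8.24 and 8.57 in Ctrl hippocampus arrays against 9.47, 8.95 and 9.18 in Ctrl cortex arrays. In DZP mice the same genes had a median of -0.15, 2 of the 42 were called lower, and the 11 genes called in Ctrl mice lay between -0.60 and 0.16.

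Markers of glia and of neighboring tissue were counted in the same arrays. All 10 oligodendrocyte markers were higher in the Ctrl hippocampus (median 1.15). *Mobp*, a myelin protein gene, was at 13.57, 13.49 and 13.24 in Ctrl hippocampus arrays against 11.58, 11.64 and 11.56 in Ctrl cortex arrays, and *Mbp* rose by 1.01. Their summed linear intensity was 22794 to 28504 in Ctrl hippocampus arrays and 9133 to 9924 in Ctrl cortex arrays. Of 9 astrocyte markers, 2 were higher and 1 lower (median -0.15, 5 with the lower mean in the hippocampus). *Gfap*, the glial filament, was at 11.90, 11.58 and 11.64 in Ctrl hippocampus arrays against 9.28, 9.07 and 8.76 in Ctrl cortex arrays. The summed linear intensity of the astrocyte markers was 147714 to 156883 in Ctrl hippocampus arrays and 161841 to 166120 in Ctrl cortex arrays. None of 10 microglia markers was called in limma, with 0 at an unadjusted p under 0.05, and their differences lay between -0.07 and 0.13. Of 10 endothelial markers, 5 were lower and none higher (median -0.46).

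All 6 ependymal markers were higher (median 0.52), 5 of them under background in both regions. Choroid plexus markers differed between the hippocampus arrays. *Ttr*, transthyretin of the choroid plexus, was at 6.78, 16.42 and 12.97 in Ctrl hippocampus arrays 1, 2 and 3, against 6.59, 6.38 and 6.47 in Ctrl cortex arrays. Its difference of 5.58 ± 2.49 (SE) was not called (adjusted p = 0.17), while *Kl*, the klotho gene, at 7.44, 9.60 and 7.60 against 5.22, 5.31 and 5.49, was, and lost its call without hippocampus array 2. It was the only one of 11 choroid plexus markers to be called. Their summed linear intensity ran from 762 to 90871 in Ctrl hippocampus arrays and from 626 to 650 in Ctrl cortex arrays. The part of choroid plexus in the differences of the named genes was not tested.

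Thalamus and striatum lie next to the punched regions. Of 12 thalamus markers, 3 were called higher and none lower (median 0.01, 6 with the lower mean in the hippocampus). Of these 3, *Prkcd*, a protein kinase C gene, was at 7.55, 7.97 and 7.25 in Ctrl hippocampus arrays against 6.63, 6.66 and 6.64 in Ctrl cortex arrays. In DZP mice *Prkcd* was not called in limma (0.49, adjusted p = 0.11). Of 13 striatal markers, 1 was higher and 1 was lower, beside 8.13% and 6.89% of all clusters. The lower one was *Scn4b*, a sodium channel beta subunit, at 6.58, 6.66 and 6.75 in Ctrl hippocampus arrays, under background, against 8.89, 9.06 and 9.11 in Ctrl cortex arrays. Of 10 meningeal and perivascular fibroblast markers, 1 was higher and 2 were lower, beside 8.13% and 6.89% of all clusters. Their median was -0.22, and 7 had the lower mean in the hippocampus. The higher one was *Dcn*, decorin, at 8.42, 9.14 and 9.68 in Ctrl hippocampus arrays against 7.66, 7.62 and 7.67 in Ctrl cortex arrays. The part of these cells in the gene differences above was not tested.

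The classes of genes differed in balance. Of 18854 clusters of coding genes, 1693 (8.98%) were higher and 2220 (11.8%) lower in the Ctrl hippocampus. Of 7571 clusters of predicted genes (symbols starting with Gm), 732 were higher and 144 lower, and of 1190 pseudogene clusters 152 were higher and 31 lower. With array medians set equal, 453 predicted genes were higher and 172 lower, and 89 pseudogenes were higher and 39 lower. In the DZP mice 219 predicted genes were higher and 191 lower, and 46 pseudogenes were higher and 27 lower. Small nucleolar and Cajal body RNAs, which guide the modification of ribosomal and spliceosomal RNA, were higher in 32 of 73 cases and lower in none (median 0.61), with 31 after this centring and 18 in the DZP mice, where 2 were lower. Cytosolic ribosomal protein genes were higher in 20 of 49 cases and lower in none at a small median difference of 0.24, and this count fell to 7 after centring and was 3 in the DZP mice.

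The DZP mice gave the same regional contrast on 6 other arrays. Both contrasts came from 1 fit and shared its estimate of the spread per cluster, so their calls are not independent. In the DZP mice 4334 of all clusters (6.57%) were higher in the hippocampus and 3750 (5.69%) lower. Of the clusters with 1 symbol, 1536 were higher in both treatments, 68.8% of the 2231 higher in DZP mice and 55.7% of the 2760 higher in Ctrl mice. Lower in both were 1668, 80% of the 2086 lower in DZP mice and 66.6% of the 2503 lower in Ctrl mice, and 4 clusters were called in opposite directions. At 2-fold or more, 769 of the 773 Ctrl calls had the same sign in DZP mice and 734 were called there in the same direction. *Cabp7* had a difference of 4.85 in DZP mice and 5.09 in Ctrl mice, *Shisa6* 5.29 and 4.96, *Kcnh5* -4.22 and -4.45, and *Lamp5* -4.18 and -4.14. Among the named genes, *Mir128-1* (-1.93 in DZP mice, -3.07 in Ctrl mice) and *Plcxd2* (-2.12 in DZP mice, -3.05 in Ctrl mice) were furthest apart. The test of the difference between treatments gave adjusted p = 0.2 for *Mir128-1* and 0.29 for *Plcxd2* in limma. No cluster with 1 symbol passed this test at an adjusted p of 0.05, with 2507 at an unadjusted p under 0.05, and the correlation of the regional differences across the 30638 clusters, which are not independent replicates, was 0.83.

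**Figure D5:**
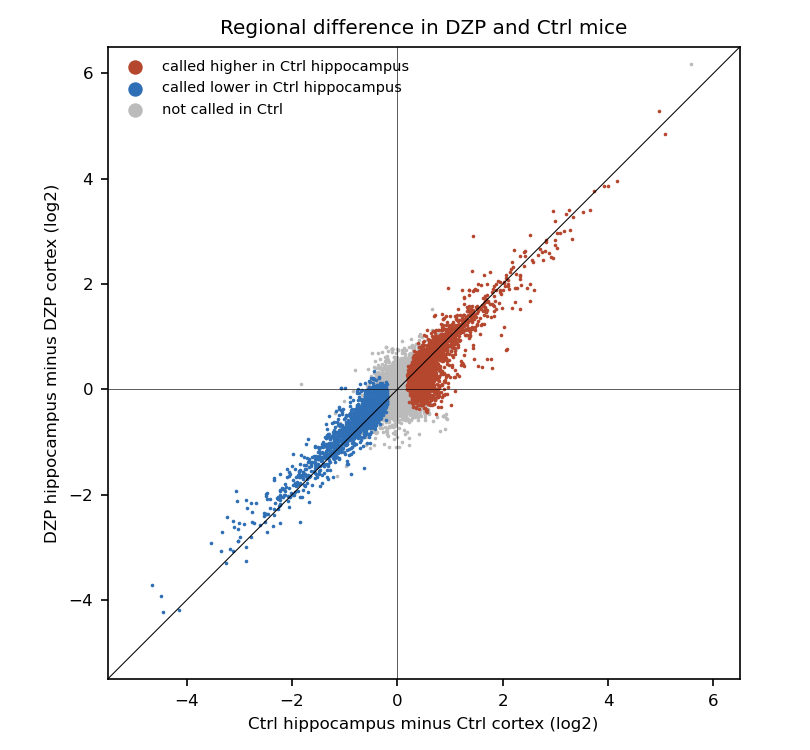
Each point is a transcript cluster with 1 gene symbol; the x axis is Ctrl hippocampus minus Ctrl cortex (log2), the y axis DZP hippocampus minus DZP cortex (log2), and the diagonal marks equal values. Red and blue mark clusters called higher and lower in the Ctrl hippocampus, and the large differences lie near the diagonal.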

How the data were processed

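The deposited values are log2 signal intensities per transcript cluster of total RNA (100 ng per array), made with Affymetrix Expression Console 1.4.1 per the submitters' processing notes. The authors' background correction, summarization and normalization are not given in the sources used here. Exon-level values were not used. Control probe sets (6732) were left out, 330 outdated symbols were updated through RefSeq (GRCm38.p6), and 2176 clusters with several symbols and 33142 without one stayed in the fit. limma 3.58.1 in R 4.3.3 was fitted to all 18 arrays as 6 groups, with eBayes, Benjamini-Hochberg adjustment over 65956 clusters and a threshold of 0.05. The fit was tested on simulated data. Of several clusters of a gene the brightest was used. The 15 named genes per direction are the coding or noncoding genes with the largest called differences, no overlap of the 3 arrays per group, and a higher group mean above the highest negative-control mean (6.80). The genes compared and the lists were chosen with earlier results of these data known. Deviations of same-numbered hippocampus and cortex arrays correlated at 0.11, -0.05 and 0.16, and those of differently numbered arrays at -0.19 to 0.07. This does not settle whether same-numbered arrays share a mouse. Numbers were not used as pairs in the main fit and were tried as a block. The number of arrays limits the precision. Alternatives were other scalings, filters, priors and tests, a replicate block and leaving out each array.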

Additional observations from a re-analysis of the deposited data

Results flagged for a closer look

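The regional difference was tested between treatments for every cluster, and 3 clusters, all without a gene symbol, passed this interaction test in limma (adjusted p = 0.041 each). Cluster TC0500003595.mm.1 had a difference of -0.34 in DZP mice and 0.74 in Ctrl mice, a change of -1.08. Cluster TC0600001936.mm.1 had 0.01 in DZP mice and -1.21 in Ctrl mice, a change of 1.22. Cluster TC1500001241.mm.1 had -0.63 in DZP mice and -1.76 in Ctrl mice, a change of 1.12, and its means lay under background in both hippocampus groups.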

How the results depend on the processing

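All 30 named genes stayed called, in the same direction, under each alternative that tested them. The counts of clusters with 1 symbol (2760 higher and 2503 lower) moved by over 1.5 times under the methods' test with an unadjusted p and a fold of 1.5 (1023 and 999), the same test after Benjamini-Hochberg (1512 and 1453) and limma's treat against that fold (319 and 431). Leaving out 1 array gave 2025 to 2277 higher and 1958 to 2351 lower in Ctrl mice, and 1692 to 2163 and 1640 to 1943 in DZP mice. Centring each array on its median left 1 cluster, of 3, past the test between treatments. With the replicate number as a block, 1859 and 1686 were called over the 6 Ctrl arrays, and 2577 and 2375 over all 18. Both block fits called *Dusp1* (-0.97) and *Nr4a1* (-1.14). Both lost the calls of *Gad1* (-0.42), *Npnt* (-0.41), *Mir767* (-0.38) and *Bdnf* (0.26). The block fit over the 6 Ctrl arrays also lost *Mir128-2* (-0.98) and *Mir544* (-0.77), and the one over 18 arrays lost *Mir376b* (-0.74). Same-numbered arrays deviated together in 2 of 3 pairs (0.11, -0.05 and 0.16). Of all pairs 0.16 and 0.11 were the highest values, but hippocampus array 2 correlated best with cortex array 1 (0.07). Whether same-numbered arrays share a mouse is not settled by this. *Sst*, not called, ranged from -0.23 to 0.14 when 1 array was left out, above 0 without Ctrl hippocampus replicate 2 (0.14) or Ctrl cortex replicate 2 (0.0032), and *Ttr* was called without Ctrl hippocampus replicate 1 (8.21). The causes were not tested. Genes under the background mean have compressed differences or none that can be measured.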
